A study of Mus musculus with 36 samples.

Results

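Satellite cells of control mice were compared between muscle 1 day after cardiotoxin injury (1 DPI, n = 4 libraries) and resting, uninjured muscle (QSC, quiescent satellite cells, n = 3 libraries). These are the 4 control libraries of 1 DPI and the 3 control libraries of QSC named in the labels, 7 of the 36 libraries in the series. Cardiotoxin is a snake venom toxin that destroys muscle fibres. Every control mouse was C57BL/6, aged 3 months, carried Pax7-CreER and the ROSA26YFP reporter and received tamoxifen, so YFP marks cells in which the Pax7-driven Cre was active, and YFP-positive cells were sorted from enzymatically digested muscle, from the hindlimb for QSC and from the injected tibialis anterior, quadriceps and gastrocnemius for 1 DPI. The same step was also read in KO cells (1 DPI n = 4, QSC n = 3), which carry the same Cre and reporter together with Drp1fl/fl, the conditional allele of the mitochondrial fission gene Dnm1l. It was read again in wild-type cells of young mice of the same strain and age (1 DPI n = 3, QSC n = 3), which carry no stated reporter and belong to a separately normalized table. RNA was sequenced in bulk and given as TPM, a gene's share of all transcripts scaled to a fixed total.

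Satellite cells are the stem cells of skeletal muscle. In resting muscle they lie between the fibre and its basal lamina in a reversible arrest, held there by Notch signalling, the calcitonin receptor, adhesion to the niche and inhibitors of cyclin-dependent kinases. Injury releases growth factors and brings in inflammatory cells, and the satellite cells enlarge, make ribosomes and mitochondria and enter the cell cycle. Their progeny either return to quiescence or express Myog and fuse into fibres. Transcription factors of the AP-1 family and other immediate-early genes are also switched on by the enzymatic release of the cells from muscle, which every library here went through.

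Between 14197 and 14969 genes reached 1 TPM in a 1 DPI library, and between 13595 and 14291 did in a QSC library. Sequencing depth cannot be read from TPM, and values are given without counting intervals. The labels do not say whether each library came from its own mice, so the spread behind the p-values may be partly technical. Satellite cell marker RNA was present in all 7 libraries. Over 12 markers it summed to 1908 to 2820 TPM at 1 DPI and 6668 to 8248 TPM in QSC. Sdc4, given below, was the largest member of both sums. Of the 12 markers 3 were called higher and 5 lower, with a median log2 difference of -0.49. With median-of-ratios scaling, described below, 1 was higher and 8 were lower. Marker RNA of other cell types was also present at 1 DPI. In bulk RNA, fewer or more cells of a type and less or more RNA per cell cannot be told apart. The 18 monocyte and macrophage markers summed to 4040, 1277, 6032 and 519 TPM in the 4 libraries of 1 DPI, against 148, 104 and 79.8 TPM in QSC, and 17 of them were called higher. The 12 neutrophil markers summed to 3623, 1433, 5213 and 390 TPM at 1 DPI, against 9.23, 23.2 and 21.3 TPM in QSC, with 8 of 11 tested called higher, although the granule genes Camp and Ngp were at or near 0 in every 1 DPI library. Libraries 1 and 3 of 1 DPI hold the most of both, so counts are also given without those 2 libraries, a choice made after seeing the data. Dnm1l (ENSMUSG00000022789, GRCm38 chromosome 16, 16312230 to 16358959, minus strand), the conditional gene of the KO mice, had 52.9, 48.8, 43.8 and 49.5 TPM at 1 DPI, against 38.2, 39.5 and 30.9 TPM in QSC. All 4 libraries of 1 DPI were above all 3 of QSC, but the difference did not pass the test (log2 difference 0.42, SE 0.18, limma adjusted p = 0.0725).

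A large part of the measured transcriptome differed between the 1 DPI and QSC libraries, which also differ in myeloid marker RNA and in the muscles taken. Of 18343 genes tested, 4268 were higher at 1 DPI, which is 23.3% of the genes tested, and 2313 were lower, which is 12.6% (limma on log2(TPM + 1), Benjamini-Hochberg adjusted p of 0.05). Of these 6581 genes 5711 were protein-coding and 221 were pseudogenes. A total of 3359 rose by more than 1 on the log2 scale and 1579 fell by more than 1. The median log2 difference of all genes was 0.15 with TPM as deposited and -0.04 with median-of-ratios scaling, described next. Here and below a difference is 1 DPI minus QSC on the log2(TPM + 1) scale, which understates the change of genes near 0 TPM. The 4 libraries of 1 DPI lay wholly above or wholly below the 3 of QSC in 7715 of the 18343 genes, or 42.1%, so a lack of overlap is common in these data. Many genes named below were chosen for a small p or a large difference in this same comparison. That choice favours a lack of overlap, which therefore describes these genes and adds no support to their calls. Shares of a list given below stand against 23.3% higher and 12.6% lower over all genes.

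The split between higher and lower genes depended on how the libraries were scaled. With median-of-ratios scaling, which sets the typical expressed gene to no difference, 3315 genes were higher, 18.1% of those tested, and 3647 were lower, 19.9%. The share of calls that were higher was 64.85% with TPM and 47.62% with that scaling. A gene's difference was 0.27 larger with TPM, as the median over genes, and 0.34 larger where a gene's mean level was 20 TPM or more. No gene was called in opposite directions by the 2 scalings, all 2313 genes lower with TPM were lower with both, and 3315 of the 4268 higher genes were higher with both. Without libraries 1 and 3 of 1 DPI, 3662 genes were higher and 1753 lower, and 3472 and 1604 of these were shared with the calls from all libraries.

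For 23 of the genes named here more than 50% of the longest transcript lies, at 95% identity or more over at least 100 bases, in another annotated gene or pseudogene, so the split of reads between copies is uncertain. These include Eno1 (85.6%), Phgdh (89.5%), Psmc1 (82.0%), Bnip3 (94.2%), Mcm7 (81.2%), Hspa1a (75.7%), Hspd1 (71.1%), Pgk1 (68.8%), Ldha (55.0%), Ccnb1 (51.9%), Pcna (51.4%), Fdft1 (54.7%), Lyz2 (96.0%), Igf2 (76.2%), Gins2 (70.7%) and Fosl1 (62.5%). Mitochondrial mRNAs can have copies in the nuclear genome. Of the 2 named below, mt-Co1 lay wholly in another annotated gene (100%), whereas mt-Nd1 had no such match (0%).

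**Figure D1:**
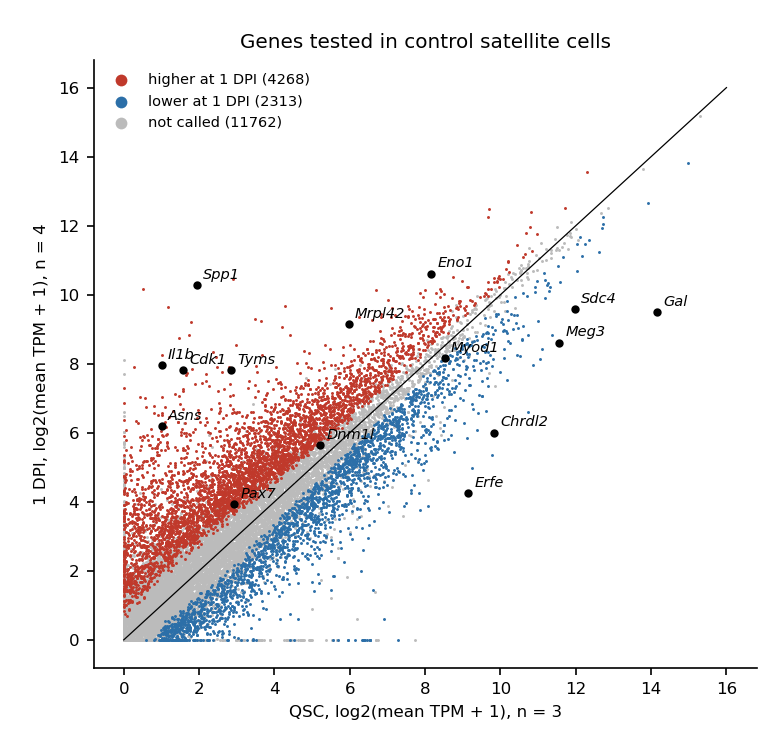
Mean level of each of the 18343 genes tested in control cells at 1 DPI (vertical, n = 4) and in QSC (horizontal, n = 3), both as log2(mean TPM + 1), with the line of equal levels. Red points are the 4268 genes called higher at 1 DPI and blue points the 2313 called lower. Spp1 and Cdk1 lie far above the line and Gal, Erfe and Chrdl2 far below it.

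Genes known to mark quiescent satellite cells were lower at 1 DPI for 8 of 24 members and higher for 3, which is 33.3% and 12.5%, beside 12.6% lower and 23.3% higher over all genes, with a median difference of -0.51. With median-of-ratios scaling 13 were lower and 1 was higher. Sdc4 (ENSMUSG00000017009, GRCm38 chromosome 2, 164424247 to 164443887, minus strand), the heparan sulphate proteoglycan syndecan-4 of the satellite cell surface, had 745, 713, 647 and 939.6 TPM at 1 DPI, against 3741, 4534 and 3854 TPM in QSC (log2 difference -2.42, SE 0.17, limma adjusted p = 2.85e-09). Calcr, the calcitonin receptor that restrains satellite cells in their niche, had 13.8, 15.6, 13.1 and 15.2 TPM at 1 DPI, against 53.2, 45.9 and 82.5 TPM in QSC (log2 difference -1.95, SE 0.43, limma adjusted p = 0.00135). Chrdl2, a secreted antagonist of BMP ligands, had 69.1, 74.1, 42.8 and 66.4 TPM at 1 DPI, against 902, 945 and 863 TPM in QSC (log2 difference -3.85, SE 0.32, limma adjusted p = 1.98e-08). For all 3 genes the 4 libraries of 1 DPI lay close together and below every QSC library. Heyl, a Notch target, fell to 16.8, 16.3, 15.9 and 19 TPM at 1 DPI, against 74.7, 98.3 and 94.2 TPM in QSC (log2 difference -2.31, SE 0.36, limma adjusted p = 4.18e-05). Tgfbr3, the TGF-beta co-receptor betaglycan, averaged 74.9 ± 2.57 TPM at 1 DPI and 199 ± 29.8 TPM in QSC (log2 difference -1.39, SE 0.32, limma adjusted p = 0.00159). Cav1, the scaffold of caveolae, averaged 420.1 ± 41.1 TPM at 1 DPI and 863 ± 195 TPM in QSC (log2 difference -1.02, SE 0.18, limma adjusted p = 0.000193). Spry1, a brake on FGF signalling, stood at 36.7 ± 6.31 TPM at 1 DPI and 49.9 ± 4.92 TPM in QSC, a difference of -0.44 that did not pass (adjusted p = 0.159) but did with median-of-ratios scaling (-0.78, adjusted p = 0.00658).

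The largest falls among abundant coding genes included secreted proteins and small regulators of calcium, ubiquitin and membrane traffic. Gal (ENSMUSG00000024907, GRCm38 chromosome 19, 3409915 to 3414544, minus strand), which encodes the neuropeptide galanin, was the most abundant of them in QSC and had 625, 867, 546 and 848 TPM at 1 DPI, against 26734, 16127 and 12306 TPM in QSC (log2 difference -4.62, SE 0.34, limma adjusted p = 3.65e-09). Erfe, also called myonectin, a hormone that lowers hepcidin, had 13.7, 24.9, 16.6 and 17.3 TPM at 1 DPI, against 541, 682 and 478 TPM in QSC (log2 difference -4.91, SE 0.44, limma adjusted p = 4.4e-08). Thbs2, a matrix thrombospondin, had 13, 13.1, 12.4 and 12.2 TPM at 1 DPI, against 284, 206 and 203 TPM in QSC (log2 difference -4.07, SE 0.39, limma adjusted p = 9.61e-08). In each of the 3 the groups were far apart, and the spread within 1 DPI was narrow for Thbs2. Arl4d, a small GTPase, fell by 4.29, with means of 30.6 TPM at 1 DPI and 611 TPM in QSC. Spsb1, an adaptor of a ubiquitin ligase, fell by 4.22, with means of 13.7 TPM at 1 DPI and 271 TPM in QSC. Mrln, the micropeptide myoregulin that inhibits the sarcoplasmic calcium pump, had 1.77, 6.1, 2.28 and 1.72 TPM at 1 DPI, against 78.4, 63.4 and 93.4 TPM in QSC (log2 difference -4.43). Every 1 DPI value of these genes lay below every QSC value, which the choice of the largest falls required. Neu2, a cytosolic sialidase, had 0, 2.31, 0 and 4.49 TPM at 1 DPI, against 152, 92.8 and 46.3 TPM in QSC (log2 difference -5.41). Tex14, Otoa, Retnla and Slc15a2, with differences of -3.86, -4.01, -4.59 and -3.84, completed the 12 largest falls. Slc15a2, a peptide transporter, was uneven within both groups, with 25.9, 10.1, 0.259 and 3.09 TPM at 1 DPI, against 41.8, 128 and 128 TPM in QSC. Its call was lost in 8 of 16 alternative fits, 4 of which left out 1 library.

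**Figure D2:**
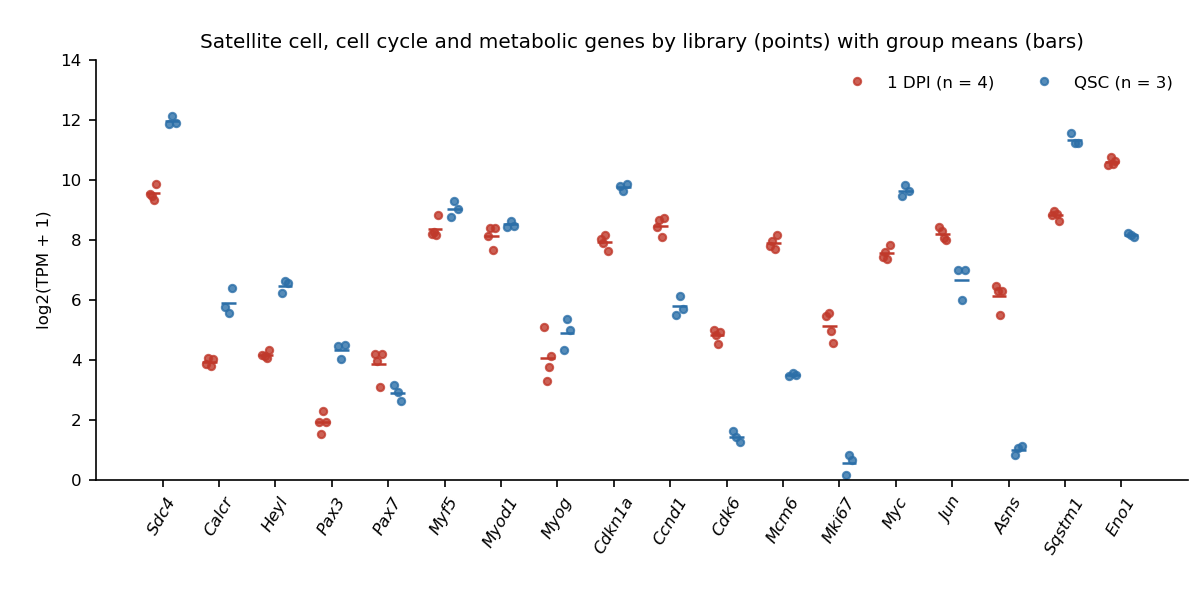
TPM of 18 genes in each control library, as log2(TPM + 1); red points are the 4 libraries of 1 DPI, blue points the 3 QSC libraries, and bars the group means. Sdc4, Calcr, Heyl, Pax3, Cdkn1a, Myc and Sqstm1 are lower at 1 DPI in every library, and Cdk6, Mcm6, Mki67, Asns and Eno1 are higher in every library, whereas Pax7, Myf5 and Myog overlap.

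The myogenic transcription factors moved in different directions. Pax7 (ENSMUSG00000028736, GRCm38 chromosome 4, 139737062 to 139833528, minus strand), the defining factor of satellite cells, had 17.5, 14.8, 7.63 and 17.2 TPM at 1 DPI, against 7.99, 6.65 and 5.2 TPM in QSC. Library 3 of 1 DPI overlapped QSC and the other 3 were above it (log2 difference 0.96, SE 0.34, limma adjusted p = 0.0309); the call was lost in 8 of 16 alternative fits, median-of-ratios scaling among them (difference 0.65). Pax3, its paralog, fell, with 2.86, 1.88, 3.89 and 2.84 TPM at 1 DPI, against 21.1, 15.3 and 21.5 TPM in QSC (log2 difference -2.40, SE 0.40, limma adjusted p = 8.13e-05), and the groups did not overlap. Myf5, a determination factor transcribed already in quiescence, had 292, 307, 284 and 459 TPM at 1 DPI, against 436, 627 and 524 TPM in QSC, which did not pass with TPM (log2 difference -0.67, SE 0.30, limma adjusted p = 0.089) and was lower with median-of-ratios scaling (-1.02, adjusted p = 0.00576). Myod1, the determination factor that marks activated cells, had 278, 333, 201 and 337 TPM at 1 DPI, against 343, 400.4 and 356 TPM in QSC. Its 4 libraries of 1 DPI were all below the 3 of QSC, again without passing with TPM (log2 difference -0.38, SE 0.23, limma adjusted p = 0.231), and with a call as lower under the other scaling (-0.72, adjusted p = 0.00861). Myog, the factor of terminal differentiation, had 33.7, 8.91, 12.5 and 16.4 TPM at 1 DPI, against 19.1, 40.4 and 31 TPM in QSC and the groups overlapped (log2 difference -0.82, SE 0.56, limma adjusted p = 0.28). Of the 15 genes of the list, which also holds fusion genes, 2 were higher and 3 lower (13.3% and 20%), with a median difference of -0.38; without library 4 of 1 DPI the median was -0.629. Musk, the agrin co-receptor kinase of the neuromuscular junction, fell to 93.7, 116, 71.7 and 118 TPM at 1 DPI, against 322, 441 and 472 TPM in QSC (log2 difference -2.04, SE 0.26, limma adjusted p = 3.05e-06).

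Notch signalling keeps satellite cells quiescent through the RBPJ targets of the Hes and Hey families. Of 18 Notch pathway genes tested 5 were lower and 2 higher at 1 DPI (27.8% and 11.1%), and the median difference was 0.19 with TPM and -0.11 with median-of-ratios scaling (6 lower and 1 higher); without libraries 1 and 3 of 1 DPI 2 were lower and 0 higher. Heyl fell, as given above, while its relative Hey1 had 17, 22.1, 18.4 and 22.3 TPM at 1 DPI, against 25.1, 16.8 and 27 TPM in QSC with overlapping groups (log2 difference -0.17, SE 0.26, limma adjusted p = 0.65). Hes1 had 85.6, 51.5, 34 and 69.2 TPM at 1 DPI, against 59.5, 22.6 and 38.7 TPM in QSC, also overlapping (log2 difference 0.59, SE 0.38, limma adjusted p = 0.254). Of 29 genes of the Wnt, TGF-beta and BMP pathways tested, 8 were lower and 0 higher, beside 12.6% lower and 23.3% higher over all genes; 9 were lower and 0 higher with median-of-ratios scaling. Wnt4, a ligand made by quiescent satellite cells, had 0.104, 0.162, 0.0563 and 0.275 TPM at 1 DPI, against 5.26, 6.15 and 4.24 TPM in QSC (log2 difference -2.43, SE 0.24, limma adjusted p = 1.81e-07). Bmpr2, the type II BMP receptor, had 6.06, 8.36, 12.9 and 8.92 TPM at 1 DPI, against 47.1, 30.9 and 41.3 TPM in QSC (log2 difference -2.04, SE 0.23, limma adjusted p = 8.2e-07). Tgfbr1, the type I TGF-beta receptor, averaged 18.3 ± 5.12 TPM at 1 DPI and 48 ± 7.51 TPM in QSC (difference -1.37). Smad3, the transcription factor downstream of that receptor, fell by 1.25 (limma adjusted p = 0.00518), a call lost without libraries 1 and 3 of 1 DPI (difference -1.08, limma adjusted p = 0.0533). In each of these 4 genes no library of 1 DPI reached the QSC range.

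A list of receptors, ligands, binding proteins and feedback inhibitors of the HGF, FGF, EGF and IGF pathways had 4 higher and 6 lower of 25 tested, or 16% and 24%, beside 23.3% and 12.6% over all genes (4 and 10 with median-of-ratios scaling). Fgfr1, the main FGF receptor of satellite cells, had 50.8, 62.4, 50.01 and 54.5 TPM at 1 DPI, against 352, 382 and 349.5 TPM in QSC (log2 difference -2.71, SE 0.18, limma adjusted p = 1.09e-09). Met, the HGF receptor through which injured muscle wakes satellite cells, had 33.9, 54.7, 31.1 and 47.7 TPM at 1 DPI, against 21, 20.3 and 23.8 TPM in QSC (log2 difference 0.88, SE 0.21, limma adjusted p = 0.0029). Igfbp3, a secreted IGF-binding protein, had 35.1, 51.1, 23.1 and 19.4 TPM at 1 DPI, against 1.22, 0.799 and 5.86 TPM in QSC (log2 difference 3.36, SE 0.44, limma adjusted p = 4.8e-06). Fgfr1 was thus lower in every 1 DPI library than in any QSC library, and Met and Igfbp3 were higher in every one. Hgf itself had 4.11, 1.34, 6.23 and 1.18 TPM at 1 DPI, against 0.0249, 0.425 and 0.428 TPM in QSC; the 2 libraries with most myeloid marker RNA were highest, and the call (difference 1.54, limma adjusted p = 0.0253) was lost without them (difference 0.82, limma adjusted p = 0.31), and also without either alone or without QSC library 1.

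Immediate-early genes were lower at 1 DPI more often than higher, with 11 of 27 lower and 4 higher (40.7% and 14.8%) and a median difference of -0.54; the counts were 14 and 1 with median-of-ratios scaling, and 11 and 1 without libraries 1 and 3 of 1 DPI. Myc (ENSMUSG00000022346, GRCm38 chromosome 15, 61985391 to 61990374, plus strand), the growth-promoting transcription factor, had 173, 195, 165 and 226 TPM at 1 DPI, against 702, 916 and 798 TPM in QSC (log2 difference -2.08, SE 0.17, limma adjusted p = 1.32e-08). Klf4, a zinc-finger factor that opposes division, had 37, 28.2, 43.7 and 33.1 TPM at 1 DPI, against 221, 147 and 187 TPM in QSC (log2 difference -2.35, SE 0.29, limma adjusted p = 2.25e-06). The AP-1 subunits differed among themselves. Fosl1 averaged 126 ± 15.1 TPM at 1 DPI and 482 ± 71.2 TPM in QSC (log2 difference -1.92, SE 0.18, limma adjusted p = 9.21e-08). Fosb averaged 25.1 ± 3.51 TPM at 1 DPI and 96.6 ± 20.3 TPM in QSC (log2 difference -1.89, SE 0.21, limma adjusted p = 6.17e-07), whereas Jun had 345, 312, 268 and 254 TPM at 1 DPI, against 127, 63.4 and 127 TPM in QSC (log2 difference 1.53, SE 0.22, limma adjusted p = 1.77e-05). Myc, Klf4, Fosl1 and Fosb were lower, and Jun higher, in every 1 DPI library than in any QSC library. Fos had 797, 746, 606 and 681 TPM at 1 DPI, against 882, 387 and 650.2 TPM in QSC, with overlapping groups and no call (log2 difference 0.22, SE 0.21, limma adjusted p = 0.467), and neither Egr1, at 310.2 ± 68 TPM at 1 DPI and 311 ± 58 TPM in QSC, nor Nr4a1 or Atf3 passed. All cells were released by enzymes at 37 °C before sorting, and how much of these levels arose during release was not tested.

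G1 regulators rose for 16 of 26 genes and fell for 2, with a median difference of 1.43 (1.19 with median-of-ratios scaling, with 15 higher and 4 lower). Cyclin D1, Ccnd1 (ENSMUSG00000070348, GRCm38 chromosome 7, 144929931 to 144939925, minus strand), which activates CDK4 and CDK6 on mitogen signals, had 344, 405, 272 and 422 TPM at 1 DPI, against 44.8, 69.3 and 51.1 TPM in QSC (log2 difference 2.69, SE 0.23, limma adjusted p = 2.29e-08). Its partner kinases rose as well, Cdk4 with 636, 660.3, 451 and 735 TPM at 1 DPI, against 90.0, 107 and 91 TPM in QSC (log2 difference 2.66, SE 0.20, limma adjusted p = 3.69e-09) and Cdk6 with 31.1, 27.8, 22.3 and 29.9 TPM at 1 DPI, against 2.08, 1.71 and 1.4 TPM in QSC (log2 difference 3.39, SE 0.24, limma adjusted p = 2.33e-09). The 2 groups were separated by a wide margin for all 3 genes. Ccne2 and Ccne1, the E cyclins of S phase entry, averaged 76.8 ± 10.3 TPM at 1 DPI and 7 ± 1.37 TPM in QSC (difference 3.29) and 51.3 ± 11.7 TPM at 1 DPI and 9.32 ± 2.25 TPM in QSC (difference 2.34), without overlap. E2f1, the transcription factor released by the retinoblastoma protein, stood at 6.05 ± 2.72 TPM at 1 DPI and 0.686 ± 0.537 TPM in QSC (log2 difference 2.01, SE 0.44, limma adjusted p = 0.00122). Rb1, that protein's gene, stood at 20.2 ± 2.62 TPM at 1 DPI and 10.02 ± 2.1 TPM in QSC (log2 difference 0.96, SE 0.23, limma adjusted p = 0.00226). Of the 7 CDK inhibitors 1 fell and 2 rose. Cdkn1a, p21, fell, with 261, 236, 289 and 196 TPM at 1 DPI, against 889, 797 and 936 TPM in QSC (log2 difference -1.84, SE 0.21, limma adjusted p = 1.1e-06), and no 1 DPI library reached the QSC range. Cdkn1c, p57, had 5.47, 1.37, 0.991 and 3.7 TPM at 1 DPI, against 8.98, 6.92 and 7.76 TPM in QSC and did not pass with TPM (log2 difference -1.35, SE 0.59, limma adjusted p = 0.0815) but did with median-of-ratios scaling (-1.64, adjusted p = 0.0315), and Cdkn1b, p27, overlapped between groups (log2 difference -0.50, SE 0.35, limma adjusted p = 0.291). Among the inhibitors of CDK4 and CDK6, Cdkn2d, p19, had 73, 75.8, 71.7 and 77.2 TPM at 1 DPI, against 29.6, 15 and 28.7 TPM in QSC (log2 difference 1.63, SE 0.28, limma adjusted p = 0.000105), higher in every 1 DPI library. Cdkn2a, which encodes p16 and ARF, also rose, at low levels, with 1.85, 1.77, 1.26 and 1.41 TPM at 1 DPI, against 0, 0 and 0.39 TPM in QSC (log2 difference 1.198, SE 0.33, limma adjusted p = 0.00773). Cdkn2b, p15, averaged 1.1 ± 0.779 TPM at 1 DPI and 0.241 ± 0.325 TPM in QSC (difference 0.71) and Cdkn2c, p18, averaged 18.1 ± 4.32 TPM at 1 DPI and 35.5 ± 7.12 TPM in QSC (difference -0.94), and neither passed (limma adjusted p = 0.21 and 0.176). Ccnd2, cyclin D2, had 23.9, 4.15, 754 and 60.5 TPM at 1 DPI, against 143, 1.65 and 7.98 TPM in QSC. In each group 1 library stood far above the others, and the difference did not pass (log2 difference 1.71, SE 1.82, limma adjusted p = 0.505).

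DNA replication genes were higher at 1 DPI for 36 of 36 members, with a median difference of 3.55 and differences between 0.40 and 5.27, beside 23.3% higher over all genes. With median-of-ratios scaling 35 were higher, the exception being Slbp, the histone mRNA stem-loop binding protein (0.40 with TPM, 0.06 with that scaling), whose call was lost in 9 of 16 alternative fits, 4 of which left out 1 library. Without libraries 1 and 3 of 1 DPI the count was 36. Tyms (ENSMUSG00000025747, GRCm38 chromosome 5, 30058202 to 30073617, minus strand), thymidylate synthase, had 192, 263, 181 and 256 TPM at 1 DPI, against 5.76, 6.93 and 5.81 TPM in QSC (log2 difference 4.95, SE 0.23, limma adjusted p = 2.45e-11). Rrm2, the regulated subunit of ribonucleotide reductase, had 484, 641, 422 and 583 TPM at 1 DPI, against 18.3, 13.6 and 20.1 TPM in QSC (log2 difference 4.86, SE 0.25, limma adjusted p = 7.08e-11). The QSC values of both were far below every 1 DPI value. The MCM helicase, which unwinds origins, rose in all 6 subunits: Mcm2 averaged 78.9 ± 13.6 TPM at 1 DPI and 1.13 ± 0.745 TPM in QSC (difference 5.27), and the differences were 4.23 for Mcm3, 3.23 for Mcm4, 4.34 for Mcm5 and 4.40 for Mcm6. Mcm7 averaged 171 TPM at 1 DPI and 67.3 TPM in QSC and rose by 1.31, and Pcna, the sliding clamp, averaged 458 TPM at 1 DPI and 154 TPM in QSC and rose by 1.57. These 2 genes were thus the most abundant of the 7 in QSC and rose least. Cdc6, which loads the helicase, had 42.4, 73.4, 49.1 and 73.2 TPM at 1 DPI, against 0.972, 0.462 and 0.591 TPM in QSC (log2 difference 5.15, SE 0.29, limma adjusted p = 1.88e-10). Gins2, a subunit of the active helicase, had 89.6, 93, 58.7 and 96.6 TPM at 1 DPI, against 4.81, 4.78 and 6.18 TPM in QSC (log2 difference 3.75, SE 0.18, limma adjusted p = 2.99e-11). Rfc1, the clamp loader's large subunit, had 119, 163, 105 and 136 TPM at 1 DPI, against 10.8, 10.3 and 9.26 TPM in QSC (log2 difference 3.55, SE 0.17, limma adjusted p = 2.45e-11). All 3 were several times higher in each 1 DPI library than in any QSC library. Uhrf1, which recruits the maintenance methyltransferase to new DNA, had 52.3, 61.8, 50.03 and 46.2 TPM at 1 DPI, against 1.5, 0.337 and 1.02 TPM in QSC (log2 difference 4.82, SE 0.24, limma adjusted p = 4.75e-11). No replication gene named here had a 1 DPI library within the QSC range, beside 42.1% of all genes tested without overlap. Several of them were named for their small p, which favours this.

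Mitosis genes, which encode the kinases, cyclins, spindle motors and checkpoint proteins of cell division, were higher for 30 of 30 members, with a median difference of 4.18 and differences between 2.82 and 6.28. All 30 were also higher with median-of-ratios scaling and without libraries 1 and 3 of 1 DPI. Cdk1 (ENSMUSG00000019942, GRCm38 chromosome 10, 69335146 to 69352938, minus strand), the kinase that starts mitosis, had 185, 303, 211 and 201 TPM at 1 DPI, against 3.03, 2.06 and 0.893 TPM in QSC (log2 difference 6.28, SE 0.47, limma adjusted p = 4.6e-09), and its cyclin Ccnb1 had 86.4, 102, 55.3 and 66.3 TPM at 1 DPI, against 0.237, 0.137 and 0.541 TPM in QSC (log2 difference 5.88, SE 0.46, limma adjusted p = 8.15e-09). Birc5, survivin, a subunit of the chromosomal passenger complex, had 136, 192, 84.1 and 138 TPM at 1 DPI, against 2.74, 1.66 and 0.352 TPM in QSC (log2 difference 5.80, SE 0.41, limma adjusted p = 2.57e-09). Top2a, which untangles sister chromatids, had 225, 297, 179 and 158 TPM at 1 DPI, against 3, 4.12 and 8.1 TPM in QSC (log2 difference 5.19, SE 0.55, limma adjusted p = 3.53e-07). These 4 genes were close to the bottom of the scale in QSC. Bub1, a checkpoint kinase, had 18.4, 29.8, 31.7 and 24.2 TPM at 1 DPI, against 0, 0 and 0.0377 TPM in QSC, listed at 0 in 2 of the QSC libraries. Mki67, the coat protein of mitotic chromosomes used as a proliferation marker, had 43.4, 46, 30.5 and 22.7 TPM at 1 DPI, against 0.125, 0.787 and 0.579 TPM in QSC (log2 difference 4.59, SE 0.47, limma adjusted p = 2.61e-07). Ccna2, cyclin A2, averaged 46.1 ± 12.7 TPM at 1 DPI and 1.99 ± 0.191 TPM in QSC (difference 3.94). Every 1 DPI library stood above the QSC libraries for each gene named.

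The promoters of these 2 lists were searched for short sequences, because the lists moved together and their control elements are well known: E2F factors bind sites in promoters of replication genes, and the CHR element in promoters of mitotic genes is bound by the DREAM and MuvB complexes. Promoters came from RefSeq on build GRCm38.p6, from 250 bases before to 50 bases after a start site, and both strands were searched. The E2F letters were TTTCCCGC or TTTGGCGC. They occurred in 10 of 34 promoters of the 29 replication genes that matched (29.4%), in 0 of 28 promoters of the 26 mitosis genes that matched, and in 2.7% of 14327 promoters of 11190 genes tested. The CHR letters were TTTGAA or TTCGAA, and TTCGAA reads the same on both strands. They occurred in 23 of 28 mitosis promoters (82.1%), in 6 of 34 replication promoters (17.6%) and in 14.4% of all. Promoters of other lists were searched as well. The E-box letters CACGTG occurred in 8 of 38 promoters of ribosome biogenesis factors (21.1%, beside 9.5% of all). The AP-1 letters TGAGTCA occurred in 0 of 28 immediate-early promoters, beside 4.0% of all. The CRE letters TGACGTCA occurred in 3 of 28 (10.7%, beside 2.9% of all). The RBPJ letters GTGGGAA occurred in 2 of 22 Notch pathway promoters (9.1%, beside 6.2% of all). A match is only a run of letters and is not evidence of binding. Stretches of promoters are printed 5′ to 3′ on the gene's strand, up to 40 bases on each side of the match and ending before the start site, for the 4 members of smallest p in each list that hold one, with the matched letters (or their reverse complement) in capitals. The first 4 are replication genes with the E2F letters.
Mcm6 (chr1:128359706-128359855, minus strand): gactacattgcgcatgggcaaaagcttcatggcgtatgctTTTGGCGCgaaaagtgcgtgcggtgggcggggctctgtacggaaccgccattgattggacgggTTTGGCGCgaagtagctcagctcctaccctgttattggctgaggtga
Cdc6 (chr11:98907973-98908060, plus strand): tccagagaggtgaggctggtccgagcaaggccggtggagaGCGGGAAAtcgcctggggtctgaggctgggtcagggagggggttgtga
Mcm5 (chr8:75109320-75109407, plus strand): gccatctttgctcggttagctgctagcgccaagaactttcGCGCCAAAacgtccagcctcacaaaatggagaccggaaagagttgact
Pola1 (chrX:93632246-93632333, minus strand): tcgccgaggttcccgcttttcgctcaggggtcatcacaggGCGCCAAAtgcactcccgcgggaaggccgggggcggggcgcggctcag
The next 4 are mitosis genes with the CHR letters.
Cdk1 (chr10:69352913-69353023, minus strand): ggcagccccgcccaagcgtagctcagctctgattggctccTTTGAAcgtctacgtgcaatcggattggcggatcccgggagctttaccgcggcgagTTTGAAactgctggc
Bub1b (chr2:118597983-118598068, plus strand): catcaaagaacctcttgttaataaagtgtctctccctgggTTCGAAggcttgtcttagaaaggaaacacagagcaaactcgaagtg
Kif11 (chr19:37376323-37376381, plus strand): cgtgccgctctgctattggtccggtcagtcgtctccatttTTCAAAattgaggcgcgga
Ect2 (chr3:27153947-27154032, minus strand): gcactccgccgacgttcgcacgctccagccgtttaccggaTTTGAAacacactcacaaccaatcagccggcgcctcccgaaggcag
In Mcm6 and Cdk1 the letters occur in 2 places of the stretch, and in Cdk1 the nearer copy begins 15 bases before the start. Of the genes not described above, Pola1, the catalytic subunit of DNA polymerase alpha, averaged 63.8 ± 12.2 TPM at 1 DPI and 14.7 ± 1.9 TPM in QSC (difference 2.04). Bub1b, a checkpoint protein, averaged 23.5 ± 3.93 TPM at 1 DPI and 1.88 ± 0.458 TPM in QSC (difference 3.08). Kif11, the spindle motor Eg5, averaged 33.5 ± 12.2 TPM at 1 DPI and 1.36 ± 0.35 TPM in QSC (difference 3.81). Ect2, an exchange factor of cytokinesis, averaged 32.8 ± 8.58 TPM at 1 DPI and 0.894 ± 0.589 TPM in QSC (difference 4.17), and the groups did not overlap for any of the 4.

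Chromatin regulators had 10 higher and 7 lower of 27, or 37% and 25.9%, beside 23.3% and 12.6% over all genes (8 and 7 with median-of-ratios scaling). Dnmt1, the maintenance DNA methyltransferase, rose to 46.2, 61.4, 41.3 and 42.1 TPM at 1 DPI, against 7.91, 5.35 and 4.73 TPM in QSC (log2 difference 2.81, SE 0.21, limma adjusted p = 5.54e-09). Hmgb2, a DNA-bending protein of dividing cells, had 260.1, 332, 229.9 and 233 TPM at 1 DPI, against 35.9, 28.7 and 50.3 TPM in QSC (log2 difference 2.77, SE 0.22, limma adjusted p = 8.27e-09). Hmga2, a chromatin protein of stem and fetal cells, had 11, 7.56, 7.84 and 11.5 TPM at 1 DPI, against 0.0872, 0.112 and 0.0755 TPM in QSC (log2 difference 3.24, SE 0.33, limma adjusted p = 2.46e-07). Prmt5, an arginine methyltransferase, averaged 106 ± 22.7 TPM at 1 DPI and 23.1 ± 2.77 TPM in QSC (difference 2.14). Tet2, which oxidises methylcytosine, fell to 28.7, 40.2, 30.5 and 21.2 TPM at 1 DPI, against 68.8, 86.9 and 89.4 TPM in QSC (log2 difference -1.43, SE 0.20, limma adjusted p = 9.28e-06), and Chd4, the ATPase of the NuRD complex, fell by 1.27. Each of these 6 genes was separated between groups without overlap. Hmga1b (difference 9.57) and the histone gene Hist1h2ap (6.43) rank among the largest rises of abundant coding genes, but 98.5% and 96.9% of their transcripts lie in near-identical copies elsewhere, Hmga1 and other histone genes among them, so which copy rose is uncertain.

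Imprinted genes fell for 12 of 19 members and rose for 2 (63.2% and 10.5%), with a median difference of -1.08, and for 13 and 2 with median-of-ratios scaling. The maternally expressed noncoding RNAs of the Dlk1-Dio3 region on chromosome 12 were among them. Meg3 (ENSMUSG00000021268, GRCm38 chromosome 12, 109541001 to 109571726, plus strand) had 471, 465, 311 and 312 TPM at 1 DPI, against 2832, 3138 and 3047 TPM in QSC (log2 difference -2.97, SE 0.39, limma adjusted p = 4.64e-06). Rian had 52, 46.8, 48.6 and 59.5 TPM at 1 DPI, against 191, 185 and 217 TPM in QSC (log2 difference -1.92, SE 0.18, limma adjusted p = 9.04e-08), and Mirg had 10.8, 7.94, 2.71 and 5.74 TPM at 1 DPI, against 104, 88.7 and 72.1 TPM in QSC (log2 difference -3.62, SE 0.59, limma adjusted p = 5.96e-05). Dlk1, the paternally expressed coding gene of the same region, went the other way, with 6.4, 7.63, 9.87 and 6.61 TPM at 1 DPI, against 1.07, 1.79 and 0.289 TPM in QSC (log2 difference 2.13, SE 0.42, limma adjusted p = 0.000465). Grb10, an adaptor that restrains insulin signalling, averaged 87.9 ± 21.8 TPM at 1 DPI and 219 ± 30.6 TPM in QSC (difference -1.33). Plagl1, a zinc-finger factor, averaged 7.11 ± 3.02 TPM at 1 DPI and 34.7 ± 7.55 TPM in QSC (difference -2.18). H19, a noncoding RNA that carries a growth-limiting microRNA, rose, with 21.3, 37.2, 15.4 and 30.4 TPM at 1 DPI, against 4.1, 4.87 and 2.09 TPM in QSC (log2 difference 2.51, SE 0.29, limma adjusted p = 8.86e-07), while its neighbour Igf2, a fetal growth factor, fell by 1.28, with means of 17.1 TPM at 1 DPI and 41.6 TPM in QSC. For every imprinted gene named here the 4 libraries of 1 DPI lay on one side of the 3 QSC libraries.

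Genes of protein synthesis and turnover did not move as one block. Cytosolic ribosomal proteins had 29 higher and 2 lower of 82 tested with a median difference of 0.21, but with median-of-ratios scaling 10 were higher and 23 lower with a median of -0.14, so the sign of the median depends on the scaling. Rpl29 was higher with both (difference 1.08), and Rps27 was lower with both (-0.49), with 4476, 4918, 4134 and 5923 TPM at 1 DPI, against 7402, 6433 and 6460.3 TPM in QSC; that call was lost in 3 of 16 alternative fits, without QSC library 1 and without 1 DPI library 3 among them. Ribosome biogenesis factors were likewise split, with 14 higher and 8 lower of 40 (35% and 20%) and a median of 0.10, against 10 and 16 and a median of -0.24 with the other scaling. Dkc1, the pseudouridine synthase dyskerin, rose to 385, 473, 368 and 371 TPM at 1 DPI, against 127, 137 and 93.2 TPM in QSC (log2 difference 1.75, SE 0.22, limma adjusted p = 3.68e-06). Nop58, a core protein of box C/D snoRNPs, fell to 983, 1171, 894 and 1235 TPM at 1 DPI, against 2024, 2059 and 1686 TPM in QSC (log2 difference -0.85, SE 0.17, limma adjusted p = 0.000412), and so did the nucleolar helicase Ddx21 (difference -0.82). Of 19 cytosolic aminoacyl-tRNA synthetases 9 rose and 0 fell (8 and 2 with the other scaling). Vars, for valine, averaged 43.3 ± 8.66 TPM at 1 DPI and 5.73 ± 4.6 TPM in QSC (difference 2.91). Dars, for aspartate, averaged 201 ± 47.7 TPM at 1 DPI and 59 ± 7.18 TPM in QSC (difference 1.72). Neither overlapped between groups.

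The proteasome rose in 31 of 37 subunits with none lower, a median difference of 0.93; with median-of-ratios scaling 25 were higher and 3 lower. Psmd14, the deubiquitinating subunit of the lid, had 204, 240.0, 214 and 305 TPM at 1 DPI, against 58.5, 73.9 and 53.3 TPM in QSC (log2 difference 1.94, SE 0.16, limma adjusted p = 1.74e-08). Psmd5, an assembly chaperone of the base, had 115, 136, 121 and 120.4 TPM at 1 DPI, against 20.7, 15.4 and 19.1 TPM in QSC (log2 difference 2.68, SE 0.19, limma adjusted p = 2.02e-09). Psmc1, an ATPase of the base, had 426, 499, 439 and 466 TPM at 1 DPI, against 126, 167 and 113 TPM in QSC (log2 difference 1.77, SE 0.16, limma adjusted p = 3.44e-08). The lowest 1 DPI library was above the highest QSC library for each of the 3.

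Nucleotide, serine, one-carbon and polyamine synthesis rose for 19 of 29 genes and fell for 3, with a median difference of 1.68 (17 and 4 with median-of-ratios scaling). Phgdh, the first enzyme of serine synthesis, had 162, 183, 129 and 147 TPM at 1 DPI, against 14, 24.2 and 13.4 TPM in QSC (log2 difference 3.14, SE 0.24, limma adjusted p = 6.23e-09). Psat1, which follows it, averaged 134 ± 24.2 TPM at 1 DPI and 41.4 ± 9.52 TPM in QSC (difference 1.68). Shmt2 and Mthfd2, which pass one-carbon units from serine to folate in mitochondria, averaged 97.9 ± 25 TPM at 1 DPI and 19.1 ± 2.32 TPM in QSC (difference 2.26) and 119 ± 20.8 TPM at 1 DPI and 21.7 ± 1.66 TPM in QSC (difference 2.39). Dhodh, the mitochondrial enzyme of pyrimidine synthesis, had 45.6, 46.3, 28.9 and 62.7 TPM at 1 DPI, against 4.51, 5.27 and 5.77 TPM in QSC (log2 difference 2.88, SE 0.24, limma adjusted p = 2.16e-08). Prps1, which makes phosphoribosyl pyrophosphate, fell, with 166, 213, 143 and 284 TPM at 1 DPI, against 360.2, 448 and 366 TPM in QSC (log2 difference -0.997, SE 0.24, limma adjusted p = 0.00238). The groups did not overlap for any gene named here, but the call of Prps1 was lost without libraries 1 and 3 of 1 DPI (difference -0.66, limma adjusted p = 0.0626). Cholesterol synthesis genes rose for 14 of 23 and fell for 0, with a median difference of 0.90 (12 and 1 with median-of-ratios scaling). Fdft1, squalene synthase, had 47.5, 68.3, 47.8 and 41.5 TPM at 1 DPI, against 10.2, 5.12 and 4.82 TPM in QSC (log2 difference 2.80, SE 0.31, limma adjusted p = 6.47e-07). Fdps, farnesyl diphosphate synthase, averaged 268 ± 34.6 TPM at 1 DPI and 64.1 ± 25.9 TPM in QSC (difference 2.11). Msmo1, a sterol oxidase, averaged 119 ± 11.3 TPM at 1 DPI and 24.6 ± 9.52 TPM in QSC (difference 2.29), and all 3 were without overlap.

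**Figure D3:**
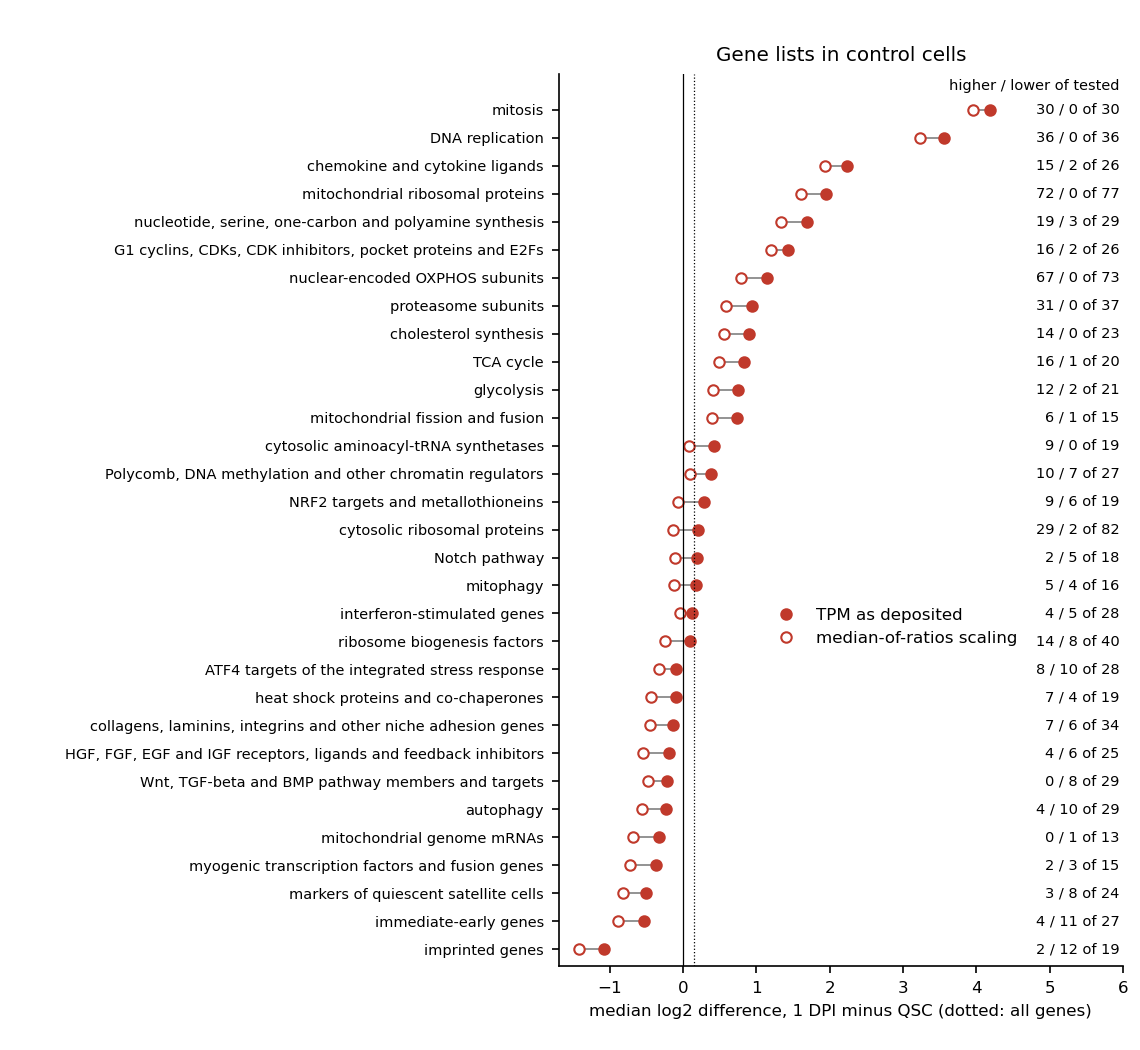
Median log2 difference (1 DPI minus QSC) of each gene list in control cells, with TPM as deposited (filled) and with median-of-ratios scaling (open); the dotted line is the median of all genes, 0.15, and the numbers at the right are the genes called higher and lower of those tested. Mitosis and DNA replication lie highest at 4.18 and 3.55 and imprinted genes lowest at -1.08, and the open symbol crosses 0 for Notch, ribosomal protein, ribosome biogenesis, mitophagy, NRF2 and interferon lists.

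Glycolysis genes rose for 12 of 21 and fell for 2, with a median difference of 0.75 (10 and 4 with median-of-ratios scaling). Eno1 (ENSMUSG00000063524, GRCm38 chromosome 4, 150236721 to 150248879, plus strand), alpha-enolase, had 1431, 1753, 1471 and 1603 TPM at 1 DPI, against 301, 286 and 271 TPM in QSC (log2 difference 2.44, SE 0.10, limma adjusted p = 2.27e-11). Pgk1, phosphoglycerate kinase, had 339.7, 374, 301 and 344 TPM at 1 DPI, against 103, 109 and 113 TPM in QSC (log2 difference 1.63, SE 0.11, limma adjusted p = 1.78e-09). Ldha, which reduces pyruvate to lactate, had 1124, 1248, 1046 and 1333 TPM at 1 DPI, against 524, 557 and 597 TPM in QSC (log2 difference 1.08, SE 0.10, limma adjusted p = 4.13e-08). Libraries within a group differed little for these enzymes and the groups did not overlap. Genes of the entry steps moved in different directions. Hk1, a hexokinase, fell to 15.3, 18.8, 16.7 and 12 TPM at 1 DPI, against 38.3, 37 and 48.1 TPM in QSC (log2 difference -1.34, SE 0.21, limma adjusted p = 4.73e-05). Hk2 averaged 63 ± 7.88 TPM at 1 DPI and 60.2 ± 6.76 TPM in QSC and overlapped between groups (log2 difference 0.06, SE 0.23, limma adjusted p = 0.866). Pfkp, the platelet-type phosphofructokinase, fell to 82.3, 76.7, 53.9 and 78.3 TPM at 1 DPI, against 263, 220.2 and 269 TPM in QSC (log2 difference -1.78, SE 0.16, limma adjusted p = 3.79e-08), whereas the liver type Pfkl rose and averaged 36.9 ± 4.77 TPM at 1 DPI and 21.5 ± 1.58 TPM in QSC (difference 0.75, not called with median-of-ratios scaling). Gpi1, which converts glucose 6-phosphate, rose, with 230.4, 228, 236 and 255 TPM at 1 DPI, against 93, 97.5 and 94.6 TPM in QSC (log2 difference 1.31, SE 0.10, limma adjusted p = 3.73e-09). Pfkfb3, which makes the activator of phosphofructokinase, also rose and averaged 15.5 ± 5.4 TPM at 1 DPI and 5.02 ± 1.7 TPM in QSC (difference 1.43), a call lost in 4 of 16 alternative fits, those without QSC library 2 and without 1 DPI library 1 among them, while the muscle type Pfkm did not pass (difference 0.07, limma adjusted p = 0.912). TCA cycle genes rose for 16 of 20 and fell for 1, with a median of 0.83 (11 and 2 with the other scaling). Mdh2, mitochondrial malate dehydrogenase, averaged 846 ± 120.4 TPM at 1 DPI and 305 ± 39.5 TPM in QSC (difference 1.47). Fh1, fumarase, averaged 123 ± 21.5 TPM at 1 DPI and 30.8 ± 7.18 TPM in QSC (difference 1.97). Sdhb, the iron-sulphur subunit of succinate dehydrogenase, averaged 317 ± 43.2 TPM at 1 DPI and 113 ± 9.18 TPM in QSC (difference 1.48). Idh2, the mitochondrial NADP-dependent isocitrate dehydrogenase, averaged 175 ± 24.2 TPM at 1 DPI and 46 ± 13.5 TPM in QSC (difference 1.93). None of the 4 overlapped between groups.

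Nuclear genes for the respiratory chain and the mitochondrial ribosome rose broadly. Of 73 nuclear-encoded OXPHOS subunits 67 were higher and 0 lower, with a median difference of 1.14; with median-of-ratios scaling 58 were higher and 3 lower. Ndufa8, a complex I subunit, had 168, 192, 178 and 219 TPM at 1 DPI, against 38.2, 42.8 and 39.9 TPM in QSC (log2 difference 2.20, SE 0.13, limma adjusted p = 2.61e-10). Ndufv2, another, had 222, 245, 217 and 253 TPM at 1 DPI, against 49.1, 61 and 58.8 TPM in QSC (log2 difference 2.04, SE 0.13, limma adjusted p = 5.72e-10). Atp5k, a subunit of ATP synthase, had 632, 644, 526 and 634 TPM at 1 DPI, against 148, 184 and 168 TPM in QSC (log2 difference 1.86, SE 0.13, limma adjusted p = 2.11e-09). No 1 DPI library of the 3 came near the QSC values. Of 77 mitochondrial ribosomal proteins 72 were higher and 0 lower, with a median of 1.95, and 65 and 0 with the other scaling. Mrpl42 (ENSMUSG00000062981, GRCm38 chromosome 10, 95480805 to 95501940, minus strand) had 546, 619, 525 and 586 TPM at 1 DPI, against 59.1, 69.2 and 57.5 TPM in QSC (log2 difference 3.18, SE 0.15, limma adjusted p = 2.45e-11). Mrpl18 had 198, 207, 150.2 and 189 TPM at 1 DPI, against 10.6, 16.5 and 19.4 TPM in QSC (log2 difference 3.53, SE 0.22, limma adjusted p = 4.87e-10) and Mrpl33 had 734, 651, 662 and 686 TPM at 1 DPI, against 158, 145 and 137 TPM in QSC (log2 difference 2.21, SE 0.11, limma adjusted p = 2.99e-11). For these 3 subunits the libraries of a group lay close together and the groups far apart. The 13 mRNAs transcribed from the mitochondrial genome, whose products are assembled with the nuclear subunits, had 0 higher and 1 lower, a median of -0.33 and differences between -0.70 and -0.07. Among them mt-Nd1, of complex I, had 3809.5, 2773, 4877 and 2797 TPM at 1 DPI, against 3076, 3387 and 4604 TPM in QSC (log2 difference -0.07, SE 0.24, limma adjusted p = 0.856). mt-Co1, of complex IV, had 2589, 1915, 3959 and 1824 TPM at 1 DPI, against 3179, 3330.2 and 4071 TPM in QSC (log2 difference -0.52, SE 0.25, limma adjusted p = 0.117). The groups overlapped for both. With median-of-ratios scaling 4 of the 13 were lower and 0 higher, with a median of -0.68. Without libraries 1 and 3 of 1 DPI 4 were also lower, with a median of -0.90, and mt-Co1 was called lower (difference -0.91, limma adjusted p = 0.00949). The median was -0.554 without library 3 of 1 DPI alone and -0.111 without library 4.

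Genes of mitochondrial fission and fusion had 6 higher and 1 lower of 15 tested, with either scaling. Opa1, the fusion GTPase of the inner membrane, had 25, 30.8, 16.7 and 25.1 TPM at 1 DPI, against 4.68, 8.13 and 8.69 TPM in QSC (log2 difference 1.64, SE 0.23, limma adjusted p = 1.03e-05). Mff, the outer membrane receptor of Drp1, had 99.4, 90.3, 86.2 and 109 TPM at 1 DPI, against 38.2, 40.8 and 54.4 TPM in QSC (log2 difference 1.11, SE 0.17, limma adjusted p = 3.5e-05). Mtfp1 and Mtfr1l, regulators of fission, rose by differences of 2.26 and 1.24, and Fis1, another outer membrane protein of fission, rose by 0.73, with means of 103 TPM at 1 DPI and 60.7 TPM in QSC. These 5 genes were higher in every 1 DPI library than in any QSC library. The outer membrane fusion genes did not pass, with Mfn1 at 21.7 ± 10.5 TPM at 1 DPI and 24.8 ± 10.8 TPM in QSC (log2 difference -0.18, SE 0.53, limma adjusted p = 0.824) and Mfn2 at 10.7 ± 5.63 TPM at 1 DPI and 4.55 ± 0.829 TPM in QSC (log2 difference 0.94, SE 0.40, limma adjusted p = 0.0756). Inf2, a formin that acts at sites of fission, had 7.39, 10.2, 6.12 and 9.84 TPM at 1 DPI, against 147, 16.5 and 20.7 TPM in QSC. It was called lower (difference -2.05), but QSC library 1 stood apart, and the call was lost in 3 of 16 alternative fits, that without QSC library 1 among them. Of 16 mitophagy genes 5 were higher and 4 lower (31.2% and 25%), with a median of 0.18 that turned to -0.13 with median-of-ratios scaling (4 and 6). Phb2, an inner membrane prohibitin, and Bnip3, a receptor of the outer membrane, rose (differences 1.87 and 1.87), as did Tomm7, of the import channel (1.45).

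Autophagy genes fell for 10 of 29 and rose for 4 (34.5% and 13.8%), with a median difference of -0.24 (15 and 3 with median-of-ratios scaling). The falls included the ubiquitin-like proteins that coat autophagosomes and their cargo receptor. Sqstm1, the cargo receptor p62, which the mitophagy list also holds, had 453, 497, 469 and 399.5 TPM at 1 DPI, against 3056, 2390.2 and 2417 TPM in QSC (log2 difference -2.52, SE 0.18, limma adjusted p = 2.19e-09). Map1lc3a had 33.7, 45.5, 29.4 and 52.6 TPM at 1 DPI, against 215, 268 and 278 TPM in QSC (log2 difference -2.65, SE 0.24, limma adjusted p = 5.86e-08). Gabarapl1 had 51.2, 76, 55.8 and 59.7 TPM at 1 DPI, against 204, 262 and 274 TPM in QSC (log2 difference -2.01, SE 0.19, limma adjusted p = 9.83e-08). Gabarap, Map1lc3b and Gabarapl2 fell as well, with differences of -1.67, -1.21 and -1.09, so each of these 6 genes was lower in every 1 DPI library. Atg5, which helps attach these proteins to membranes, rose instead, with 24, 28.3, 24.6 and 26 TPM at 1 DPI, against 11.1, 10.6 and 11.2 TPM in QSC (log2 difference 1.16, SE 0.16, limma adjusted p = 7.41e-06).

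Stress response lists were mixed. Of 28 ATF4 targets of the integrated stress response 8 rose and 10 fell, or 28.6% and 35.7% (8 and 11 with median-of-ratios scaling). Asns (ENSMUSG00000029752, GRCm38 chromosome 6, 7675169 to 7693254, minus strand), asparagine synthetase, had 88.1, 78.1, 44 and 78.2 TPM at 1 DPI, against 0.772, 1.09 and 1.18 TPM in QSC (log2 difference 5.14, SE 0.31, limma adjusted p = 3.91e-10), and the serine enzymes Phgdh and Psat1 rose as given above. Atf4 itself had 202, 269, 219.7 and 186 TPM at 1 DPI, against 325, 289 and 299 TPM in QSC (log2 difference -0.49, SE 0.13, limma adjusted p = 0.00584). Ppp1r15a, which reverses the block on translation, had 534, 537, 500.2 and 494 TPM at 1 DPI, against 1341, 1124 and 1414 TPM in QSC (log2 difference -1.32, SE 0.15, limma adjusted p = 1.19e-06). Vldlr, a lipoprotein receptor, fell by 2.94. Gdf15, a stress hormone, had 13.8, 12.5, 18.9 and 7.78 TPM at 1 DPI, against 199, 23.8 and 41.9 TPM in QSC; QSC library 1 stood apart, and the call (difference -2.13) was lost in 5 of 16 alternative fits, among them those without QSC library 1 and without 1 DPI library 4. Of 19 heat shock and co-chaperone genes 7 rose and 4 fell (36.8% and 21.1%), with a median of -0.10 (5 and 9 with median-of-ratios scaling). Hspa5, the chaperone BiP of the endoplasmic reticulum, had 1727, 1749, 1591 and 1539 TPM at 1 DPI, against 4265, 4488 and 3899 TPM in QSC (log2 difference -1.35, SE 0.10, limma adjusted p = 5.6e-09), whereas the mitochondrial chaperonin pair Hspd1 and Hspe1 rose (differences 1.54 and 1.79). The inducible Hspa1a had 814, 645, 559 and 623 TPM at 1 DPI, against 114, 84.4 and 139 TPM in QSC (log2 difference 2.56, SE 0.24, limma adjusted p = 6.69e-08), and its co-chaperone Bag3 had 85, 94.6, 80.7 and 94 TPM at 1 DPI, against 419, 299 and 461 TPM in QSC (log2 difference -2.12, SE 0.20, limma adjusted p = 1.06e-07). These chaperone genes were separated between the groups without overlap, in opposite directions. Of 19 NRF2 targets and metallothioneins 9 rose and 6 fell (47.4% and 31.6%), with a median of 0.28 that turned to -0.06 with median-of-ratios scaling (7 and 6). Gsr, glutathione reductase, rose to 61.2, 30.3, 51.5 and 33.1 TPM at 1 DPI, against 2.57, 2.41 and 0.906 TPM in QSC (log2 difference 3.92, SE 0.33, limma adjusted p = 2.36e-08), and Mt2, a metallothionein, fell to 1331, 1374, 1186 and 1387 TPM at 1 DPI, against 3346, 3307 and 2589 TPM in QSC (log2 difference -1.22, SE 0.20, limma adjusted p = 6.57e-05).

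Genes of niche adhesion had 7 higher and 6 lower of 34, or 20.6% and 17.6%, close to the 23.3% and 12.6% of all genes (4 and 12 with median-of-ratios scaling). Vcam1, an adhesion receptor on satellite cells, had 272, 341, 230.0 and 290.1 TPM at 1 DPI, against 827, 1115 and 726 TPM in QSC (log2 difference -1.64, SE 0.20, limma adjusted p = 1.69e-06). Col6a1, a collagen of the satellite cell niche, averaged 13.6 ± 3.11 TPM at 1 DPI and 56 ± 13 TPM in QSC (difference -1.96). Tnc, tenascin-C, a matrix protein of regenerating muscle, rose, with 65.1, 74.6, 57.4 and 61.7 TPM at 1 DPI, against 5.32, 5.28 and 3.64 TPM in QSC (log2 difference 3.52, SE 0.42, limma adjusted p = 1.76e-06), and Cdh2, N-cadherin, rose by 2.76. None of these 4 had overlapping groups. Interferon-stimulated genes had 4 higher and 5 lower of 28 (14.3% and 17.9%) with a median difference of 0.12, close to the 0.15 of all genes, and 3 higher and 5 lower with a median of -0.05 with median-of-ratios scaling. Bst2, tetherin, rose by 1.68 and Ifitm3, an endosomal block to viral entry, fell by 0.94, with means of 1248 TPM at 1 DPI and 2404 TPM in QSC.

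Cytokine and chemokine ligands rose for 15 of 26 and fell for 2, with a median difference of 2.24, and 10 rose and 1 fell without libraries 1 and 3 of 1 DPI. Some of them followed the order of myeloid marker RNA among the 1 DPI libraries and others did not. Csf1, the growth factor of macrophages, had 136, 105, 101 and 106 TPM at 1 DPI, against 25.1, 9.71 and 11.2 TPM in QSC (log2 difference 2.90, SE 0.27, limma adjusted p = 8.8e-08). Cxcl12, a chemokine that attracts leukocytes and stem cells, had 84.2, 67.9, 92.7 and 69.4 TPM at 1 DPI, against 19.6, 16.9 and 14.6 TPM in QSC (log2 difference 2.14, SE 0.30, limma adjusted p = 1.23e-05). Both varied far less across the 4 libraries of 1 DPI than the myeloid marker sums. Csf1 was lowest in library 3, whereas Cxcl12 was highest in libraries 3 and 1. Without libraries 1 and 3 the differences of Csf1 and Cxcl12 were 2.83 and 1.96. Il1b, interleukin-1 beta, had 333, 92.5, 497 and 67.8 TPM at 1 DPI, against 1.71, 0.999 and 0.34 TPM in QSC (log2 difference 6.55, SE 0.90, limma adjusted p = 8.74e-06). Tnf, tumour necrosis factor, had 92.7, 21.7, 107 and 10.5 TPM at 1 DPI, against 0.623, 0.0625 and 0.365 TPM in QSC (log2 difference 4.92, SE 0.73, limma adjusted p = 2.17e-05). Ccl3, a chemokine of myeloid cells, had 496, 194, 963 and 60.4 TPM at 1 DPI, against 1.72, 2.74 and 0.906 TPM in QSC (log2 difference 6.68, SE 0.96, limma adjusted p = 1.47e-05). In these 3 genes libraries 3 and 1 were highest and library 4 lowest, the same order as the macrophage and neutrophil marker sums. Without libraries 1 and 3 their differences were 5.37, 3.60 and 5.35. Ccl2, the monocyte chemokine, was called with all libraries but not without these 2 (0.97, limma adjusted p = 0.345), and it was lost in 8 of 16 alternative fits.

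Several of the largest rises of abundant coding genes were also myeloid genes. S100a9 and S100a8, calcium-binding proteins of neutrophils and monocytes, rose by 8.14 and 7.04. S100a9 had 1127, 425, 1501 and 114 TPM at 1 DPI, against 0.274, 0.3 and 3.2 TPM in QSC. Clec4e, a receptor of macrophages, had 713, 290.1, 1294 and 75.6 TPM at 1 DPI, against 2.69, 4.53 and 0.0629 TPM in QSC, and Pf4, platelet factor 4, had 635, 204, 885 and 80.3 TPM at 1 DPI, against 1.98, 1.47 and 3.54 TPM in QSC; Hcar2 and Il1r2 followed the same order of libraries. Spp1 (ENSMUSG00000029304, GRCm38 chromosome 5, 104435118 to 104441050, plus strand), osteopontin, a secreted protein of macrophages and also of muscle precursor cells, had 1375, 999, 2177 and 411 TPM at 1 DPI, against 6.83, 0.774 and 0.969 TPM in QSC (log2 difference 8.45, SE 0.52, limma adjusted p = 5.55e-10); library 4, with the least myeloid marker RNA, was lowest. Of the macrophage markers, Lyz2, Cd68 and Adgre1 rose by differences of 3.64, 3.16 and 3.48 with all libraries, and differed by 2.25, 1.89 and 2.37 without libraries 1 and 3, where none of the 3 was called and 5 of the 18 macrophage markers were. Of 11 neutrophil markers 7 were still called higher without these libraries, with a median of 2.81. All 18 macrophage markers were above 0.1 TPM in every 1 DPI library. Whether these transcripts came from other cells in the sort or from the satellite cells was not tested.

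**Figure D4:**
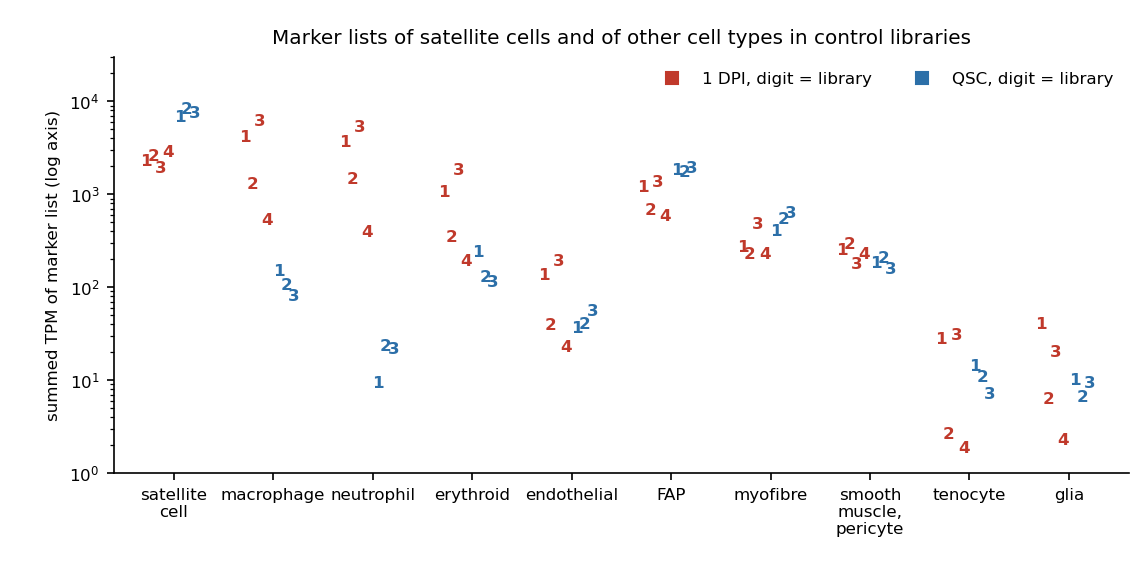
Summed TPM of marker lists (log axis) in each control library; each digit is a library number, red for 1 DPI and blue for QSC. Macrophage and neutrophil sums are higher in all 4 libraries of 1 DPI than in QSC and largest in libraries 3 and 1. The satellite cell sum is 1908 to 2820 TPM at 1 DPI and 6668 to 8248 TPM in QSC, with Sdc4 its largest member.

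Marker lists of other cell types were less uniform. Fibro-adipogenic progenitor markers summed to 575 to 1332 TPM at 1 DPI and 1711 to 1883 TPM in QSC, with 0 of 12 higher and 3 lower, Dpt, Gsn and Col3a1; the call of Col3a1 was lost in 4 of 16 alternative fits, 3 of which left out QSC library 2, QSC library 3 or 1 DPI library 4. The lower sum was carried by Dpt, which averaged 133 TPM at 1 DPI and 728 TPM in QSC, and Gsn, which averaged 368 TPM at 1 DPI and 727 TPM in QSC. The median difference of this list was 0.64, with 7 of 12 above 0, and -0.83 without libraries 1 and 3 of 1 DPI. Pdgfra, the receptor that defines these cells, had 15.2, 1.37, 15 and 2.33 TPM at 1 DPI, against 2.03, 0 and 0.843 TPM in QSC and Ly6a, Sca-1, had 105, 10.8, 134 and 9.66 TPM at 1 DPI, against 11.1, 5.8 and 8.54 TPM in QSC, both highest in libraries 1 and 3 and neither called. Endothelial markers summed to 22.4 to 191 TPM at 1 DPI and 35.5 to 55.2 TPM in QSC (2 higher and 1 lower of 11), and erythroid markers to 187 to 1785 TPM at 1 DPI and 113 to 236 TPM in QSC (3 higher of 5, 0 with median-of-ratios scaling and 0 without libraries 1 and 3). Markers of mature myofibres summed to 224 to 472 TPM at 1 DPI and 393 to 623 TPM in QSC, with 4 lower of 19. Tenocyte and smooth muscle lists had 1 gene lower each, and Schwann cell and lymphocyte lists had 0 called. Without libraries 1 and 3 of 1 DPI the endothelial median was -0.15, against 1.08 with all libraries, and the Schwann cell median -0.61, against 0.39.

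The same step in KO cells was read in other libraries of the same table, within the same fit. The 2 comparisons share the filter and each gene's estimate of the spread, so their calls are not independent. Of the genes tested there, 3959 were higher at 1 DPI (21.6%) and 1938 lower (10.6%). Of these, 3402 were also higher in control cells, which is 85.9% of the KO calls and 79.7% of the control calls, and 1496 were also lower, which is 77.2% and 64.7%. The replication and mitosis lists again had 36 of 36 and 30 of 30 higher, with medians of 3.30 and 3.03, and mitochondrial ribosomal proteins 72 of 77. OXPHOS subunits had 57 higher and 1 lower of 73, with a median of 0.87. Single genes of the cycle were called in both: Cdk1 differed by 5.23 in KO and 6.28 in control cells, Ccnb1 by 3.51 and 5.88, and Mki67 by 2.93 and 4.59. In KO cells 1 library of each group stood apart. The mitosis list summed to 34.4, 84.1 and 273.7 TPM in the 3 libraries of KO QSC, and without library 3 its median difference was 3.64. Macrophage markers summed to 11983 TPM in library 2 of KO 1 DPI and to 745 to 2059 TPM in the other 3, and without library 2 the mitosis median was 3.20. Dnm1l stood at 34.7 ± 5.92 TPM at 1 DPI and 36.7 ± 5.84 TPM in QSC in KO cells (difference -0.08, limma adjusted p = 0.775); gene-level TPM do not resolve the exons flanked by loxP, so these values do not check the deletion.

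Whether activation differed between KO and control cells was tested as an interaction. It was called for 4 of 18343 genes, 0.0218%, and 793 had an unadjusted p under 0.05. The 4 genes are the pseudogenes Gm14893, Gm2427 and Gm5874 and the small RNA gene Gm24682, each listed at 0 in most libraries. No gene of any list used here was among them, so the smaller differences of the mitosis genes in KO cells did not pass the test of the difference gene by gene. Of the 30 mitosis genes 14 had an unadjusted interaction p under 0.05, beside 793 of all 18343 genes. The count was 5 without library 3 of KO QSC and 8 without library 2 of KO 1 DPI. It was 23 without library 1 of KO QSC, where 1 gene was called. The median interaction of the 30 genes, KO minus control, was -1.215, and it lay between -1.711 and -0.696 when 1 KO library was left out. The list as a whole was not tested. For Ccnb1 the interaction, KO minus control, was -2.38 (limma adjusted p = 0.584) and for Birc5 -2.02 (limma adjusted p = 0.715).

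In wild-type cells of young mice, 3934 of 16949 genes were higher at 1 DPI (23.2%) and 1490 lower (8.79%). Of the genes tested in both tables, 2985 were higher in young wild-type and in control cells, which is 76.0% of the young wild-type calls and 71.0% of the control calls, and 992 were lower in both, 67.4% and 44.8%. Replication and mitosis again had 36 of 36 and 30 of 30 higher (medians 3.45 and 3.58), and mitochondrial ribosomal proteins 66 of 77. Other lists differed from control cells. Quiescence markers had 6 higher and 4 lower of 24 (median 0.19), beside 3 and 8 in control cells. Immediate-early genes had 5 and 2 of 27, beside 4 and 11, and imprinted genes 4 and 4 of 19, beside 2 and 12. Ribosome biogenesis factors had 3 and 16 of 40, beside 14 and 8. Mitochondrial mRNAs had 0 and 11 of 13, beside 0 and 1. Several genes called lower in control cells were not called lower in young wild-type cells. Fosb differed by 0.98 in young wild-type cells (limma adjusted p = 0.00679) and -1.89 in control cells, Klf4 by -0.23 (adjusted p = 0.444) and -2.35, and Cav1 by -0.02 (adjusted p = 0.965) and -1.02. Fos, without a call in control cells, differed by 2.20 in young wild-type cells (limma adjusted p = 5.03e-06), and Hspa1a, higher in control cells, by -0.83 (adjusted p = 0.393). Pax7 rose by 1.93 in young wild-type cells (adjusted p = 0.000137) and 0.96 in control cells. Interferon-stimulated genes had 11 higher and 1 lower of 28 in young wild-type cells, with a median of 1.19, beside 4 higher and 5 lower in control cells. The tables were normalized separately, so the difference between these comparisons was not tested. In each young wild-type library all 55471 genes are above 0, against 14993 to 24064 in the libraries of the other table. The reason is not known, and low values of the 2 tables are not alike.

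**Figure D5:**
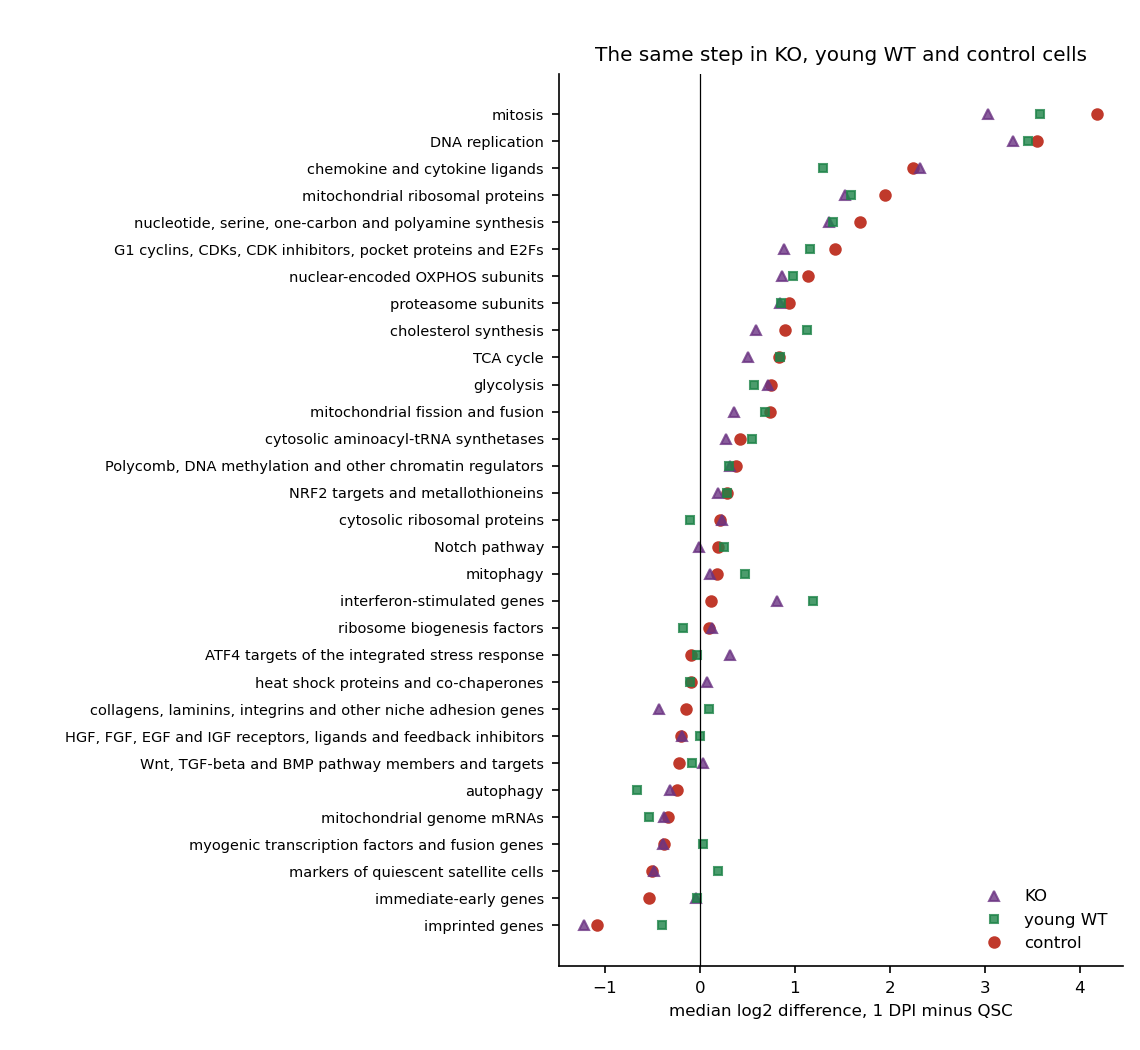
Median log2 difference (1 DPI minus QSC) of each gene list in KO cells (triangles), young wild-type cells (squares, from the separately normalized table) and control cells (circles). The mitosis medians are 3.03 in KO, 3.58 in young wild-type and 4.18 in control cells and the replication medians 3.30, 3.45 and 3.55, while interferon-stimulated genes are at 1.19 in young wild-type and 0.12 in control cells.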

How the data were processed

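The authors deposited 2 tables of TPM values per gene, made with RSEM 1.3.1 on GRCm38 after CASAVA 1.8.2 and cutadapt 1.7.1, per the submitters' processing notes; no aligner is named in the sources used here. Cells were sorted and RNA was sequenced in bulk and single-end, per the labels' protocols, which name a low-input kit and a directional protocol. Which of them made the QSC and which the 1 DPI libraries is not clear, and the part of the protocol in the differences was not tested. The muscles taken also differed between these groups, and their part cannot be told apart from that of injury. Of 55471 gene identifiers, 55230 matched a symbol in GENCODE M21, the source of coordinates. TPM keep no read depth, and a rise of a few abundant genes lowers the share of all others.

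A gene was tested where it reached 1 TPM in 3 or more of a table's libraries, with limma 3.58.1 (R 4.3.3; empirical Bayes with trend) on log2(TPM + 1). The 21 libraries of the table with control and KO cells entered 1 fit with a mean per group, and the 15 of the other table a second one. Tests were two-sided, with Benjamini-Hochberg adjustment over all genes tested at 0.05. On simulated data with 18343 genes, the control comparison recovered 46 of 100 genes changed by 1 on the log2 scale. It recovered 89 of 100 changed by 2, and called 5 unchanged genes. The changed genes were drawn only from those with a QSC mean above 3 on the log2(TPM + 1) scale. Recovery of genes lower than that in QSC was not tested. The control comparison of the deposited data called 6581 genes, far more than were changed there. Recovery with so many changed genes was not tested.

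Named genes are the 12 largest differences in each direction among abundant coding genes called without overlap, the 4 called members of smallest p in each list, a panel of 16 genes, and further list members as examples; some genes that meet the rule are not reported here. The members and lists were chosen with earlier results of these data known, and lists are described by counts and medians with no set test. Alternatives were another pseudocount (0.1), no filter or a filter of 5 TPM, median-of-ratios scaling, rescaling to coding genes, array weights, fitting only the groups compared, a replicate block and leaving out libraries. The labels do not say whether replicate numbers pair the libraries. Same-numbered 1 DPI and QSC control libraries deviated from their group means with correlations of 0.05, 0.02 and 0.02. Differently numbered ones had correlations between -0.056 and 0.06. With so few libraries these values cannot show whether any shared an animal, litter or day. Shared sequence was searched with BLAST 2.17.0, and figures were drawn with matplotlib 3.10.9.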

Additional observations from a re-analysis of the deposited data

Results flagged for a closer look

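Among the 205 genes named, 15 had 1 library of control 1 DPI cells far from the other 3 by Dixon's ratio, the gap to the nearest library over the whole range on the log2 scale, with a limit of 0.829; chance alone flags about 1 in 20. Library 3 was the lowest for Atp5k (ratio 0.905), Shmt2 (0.912), Mcm2 (0.872), Gins2 (0.849), Fosl1 (0.884), Egr1 (0.862) and Pfkp (0.835), and it is also the library with the most macrophage and neutrophil marker RNA; the part of that RNA in these values was not tested. Shmt2 stood at 60.6 TPM in library 3, against 108 to 114 TPM in the other 3, and Mcm2 at 58.7 TPM, against 82.8 to 87.1 TPM. Library 1 was the lowest for Ccne2 (0.841) and the highest for Nr4a1 (0.851) and Ifitm3 (0.981). Library 2 was the highest for Ect2 (0.842), Hk2 (0.993) and Ngp (1.000), where Ngp was listed at 0 in the other 3. Library 4 was the highest for Myf5 (0.842) and the lowest for Bub1b (0.857).

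The difference between 1 DPI and QSC was itself different between KO and control cells for 4 genes, given as KO minus control on the log2 scale. Gm5874 (-3.85, limma adjusted p = 0.000244) was listed at 0 in all KO libraries, against 13.5, 11.6, 20.6 and 9.93 TPM in control cells at 1 DPI and 0 in control QSC. Gm14893 (1.86, limma adjusted p = 0.00513) was listed at 0 in all KO libraries and in control cells at 1 DPI, against 3.55, 1.95 and 2.58 TPM in control QSC. Gm24682 (-4.26, limma adjusted p = 4.01e-06) had 25.9, 10.1 and 22.7 TPM in KO QSC and was listed at 0 elsewhere. Gm2427 (-2.76, limma adjusted p = 0.0311) had 5.17, 10.03 and 9.35 TPM in KO QSC and at most 0.991 TPM in the other groups. The whole transcripts of Gm5874 and Gm2427 lie in other annotated genes, so the assignment of their reads is uncertain.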

How the results depend on the processing

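Of 177 called genes named here, 161 were called in all 16 alternative fits, 5 calls were lost with median-of-ratios scaling and 12 without libraries 1 and 3 of 1 DPI, and no called value changed sign. Median-of-ratios scaling moved the genes lower at 1 DPI to 3647 in control, 3119 in KO and 2380 in young wild-type cells. Leaving out 1 library at a time, the control comparison called 5566 to 6285 genes (3655 to 4126 higher, 1844 to 2159 lower), the KO comparison 4689 to 5740 (3196 to 3967 and 1417 to 1917), the young wild-type comparison 4347 to 4656 (3212 to 3443 and 1060 to 1273) and the interaction 3 to 12; it called 17 with no filter on low values and 2 with a minimum of 5 TPM. With the replicate number as a block the control comparison called 6345, the KO comparison 5685, the young wild-type comparison 3301 (675 lower) and the interaction 5. The cause of these moves was not tested.

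With median-of-ratios scaling the medians turned negative for Notch (-0.109, and -0.174 with a minimum of 5 TPM), ribosome biogenesis (-0.242), cytosolic ribosomal proteins (-0.141), mitophagy (-0.132), NRF2 targets (-0.064) and interferon-stimulated genes (-0.047). Without libraries 1 and 3 of 1 DPI the medians turned for heat shock proteins (0.130), NRF2 targets (-0.117) and interferon-stimulated genes (-0.015), and for the marker lists of fibro-adipogenic progenitors (-0.831), endothelial cells (-0.150) and Schwann cells (-0.608). Leaving out 1 library at a time moved 14 of 31 list medians by over 1.5 times. The median turned for ribosome biogenesis (-0.014 without library 2 of 1 DPI, up to 0.216) and ATF4 targets (0.014 without QSC library 3, down to -0.201). It ranged from 0.051 to 0.197 for Notch, 0.046 to 0.269 for mitophagy, 0.114 to 0.371 for NRF2 targets, 0.035 to 0.206 for interferon-stimulated genes, 0.113 to 0.278 for cytosolic ribosomal proteins, -0.629 to -0.286 for myogenic genes, -0.347 to -0.130 for autophagy, -0.554 to -0.111 for mitochondrial mRNAs, -0.283 to -0.132 for growth factor pathways, -0.140 to -0.052 for heat shock proteins, -0.285 to -0.068 for Wnt, TGF-beta and BMP and -0.279 to -0.010 for niche adhesion. TPM give no depth, so low values carry an unknown counting error.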
